A study of Homo sapiens with 9 samples.

Results

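The human mitochondrial genome encodes 37 genes, and all 37 were rows of the deposited table of 36650 genes, chosen by their chromosome (M). By biotype they are 13 mRNAs, 2 rRNAs and 22 tRNAs. The table places 28 on the plus strand, the genes conventionally called heavy-strand genes (12 mRNAs, both rRNAs and 14 tRNAs), and 9 on the minus strand, the light-strand genes (MT-ND6 and 8 tRNAs). Each strand is copied by the mitochondrial RNA polymerase as a long precursor in which tRNAs lie between most of the other genes, and their excision frees the mRNAs and rRNAs. The mRNAs encode membrane-embedded subunits of the respiratory chain and ATP synthase, while the rRNAs and tRNAs serve the mitochondrial ribosome that translates them. Steady-state levels of genes from 1 precursor can therefore differ through RNA stability as well as synthesis.

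The 9 libraries fall into 3 groups of 3 and came from 16D, a prostate cancer cell line that grows despite castration-level androgen. Every group carried a CRISPR knockout of OGDHL, which is related to the E1 enzyme of the 2-oxoglutarate dehydrogenase complex in the mitochondrial matrix, and every group had been adapted to the androgen receptor antagonist enzalutamide over 6 weeks and was held in 10 µM of the drug. The groups differ in what was put into the knockout cells: eGFP as control, a full-length OGDHL that the guide cannot cut, or the same cut-resistant OGDHL without its mitochondrial targeting sequence (dMTS). None of the 9 libraries is from cells with intact OGDHL or from cells without enzalutamide, and the labels do not say whether a line was 1 clone or whether replicates of a group came from separate cultures. P-values therefore measure only the spread between these samples, which may be technical.

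The estimated reads (M, 1000000) were 111.8, 101.3 and 86.3 M in the eGFP and 96.3, 96.9 and 120.5 M in the full-length libraries. In the dMTS libraries they were 103.7, 121.2 and 111.4 M. OGDHL, the label check, was at 1.19 ± 0.07 TPM (transcripts per 1000000; SD, n = 3) in the eGFP, 218 ± 52.8 in the full-length and 125 ± 49.5 in the dMTS libraries, with no overlap between eGFP and either form. All 9 markers of luminal prostate epithelium reached 1 TPM, with a summed level of 2404 to 3081 TPM. Markers of basal epithelium (2 of 3 had values, summed level 0.321 to 0.563 TPM), leukocytes (2 of 3, 0.263 to 0.602) and endothelium (3 of 3, 0.0183 to 0.0374) stayed below 1 TPM. Of the fibroblast markers 1 of 3, COL1A1, was at 2.22 to 3.13 TPM. The library dMTS replicate 2 stood apart, with a median log2 ratio of 0.27 to the row means over the tested genes against -0.14 to 0.06 in the other 8. Results are therefore given on the deposited scale and after removing that median from each library ("rescaled"). TPM has a fixed total, so this median is not independent of the mitochondrial share of TPM, which was lowest in dMTS replicate 2 (54.9%). In that library rescaling moved the median log2 difference of the 13 mitochondrial mRNAs from the eGFP mean from -0.28 to -0.59. The rescaled values are thus not an independent view of the members.

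The tRNA genes are short, from 59 to 75 bases, and the reads were pairs of 50 bases, so a read pair longer than the gene has to reach into its neighbours. Several tRNA genes of opposite strands abut, and these neighbours are shown because tRNAs a few bases apart differed widely in level. Sequences are those of the GENCODE release 29 transcripts (GRCh38), whose start, end and strand matched the table for 37 of 37 genes. Each is written 5′ to 3′ as transcribed, with the anticodon, found by a search for the anticodon stem and loop, in capitals. The serine tRNA MT-TS1 (chrM:7446-7514, minus strand) is 3 bases from the aspartate tRNA MT-TD (chrM:7518-7585, plus strand), the alanine tRNA MT-TA (chrM:5587-5655, minus) is 7 bases from the tryptophan tRNA MT-TW (chrM:5512-5579, plus), and the glutamine tRNA MT-TQ (chrM:4329-4400, minus) overlaps the isoleucine tRNA MT-TI (chrM:4263-4331, plus) by 3 bases. The glutamate tRNA MT-TE (chrM:14674-14742, minus) adjoins MT-ND6 with no base between, and is the member that came closest to a call.
MT-TS1: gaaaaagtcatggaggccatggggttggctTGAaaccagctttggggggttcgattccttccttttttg
MT-TD: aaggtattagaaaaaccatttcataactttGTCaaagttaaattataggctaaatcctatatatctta
MT-TA: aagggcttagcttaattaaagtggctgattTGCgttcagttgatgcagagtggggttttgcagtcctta
MT-TW: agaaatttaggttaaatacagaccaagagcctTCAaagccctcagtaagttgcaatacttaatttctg
MT-TQ: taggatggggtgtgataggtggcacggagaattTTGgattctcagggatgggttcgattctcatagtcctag
MT-TI: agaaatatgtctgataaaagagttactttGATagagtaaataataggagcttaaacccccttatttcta
MT-TE: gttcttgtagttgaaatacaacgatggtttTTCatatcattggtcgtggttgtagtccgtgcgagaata
Over all 22 sequences the 8 light-strand tRNAs held a median of 22.6% A and 28.0% G, and the 14 heavy-strand tRNAs 36.4% A and 15.4% G. The lengths were alike, with a median of 69 bases for the light-strand and 68.5 for the heavy-strand tRNAs.

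Mitochondrially encoded RNA made up most of the deposited TPM in every library. Its share of TPM was 62.1%, 63.5% and 66.0% in the eGFP, 65.0%, 64.2% and 63.4% in the full-length and 65.7%, 54.9% and 62.9% in the dMTS libraries. The value of dMTS replicate 2 lay below all others, and the groups overlapped. The differences of group means were 0.372 percentage points for full-length OGDHL against eGFP, -2.67 for dMTS against eGFP and -3.04 for dMTS against full-length OGDHL, with exact two-sided permutation p = 0.9, 0.6 and 0.6 (Benjamini-Hochberg adjusted p = 0.953, 0.72 and 0.72 over 18 such tests of 6 measures; 3 against 3 cannot go below 0.1). The sign of each difference turned on leaving out 1 library: without dMTS replicate 2 those of dMTS were 0.452 against eGFP and 0.0800 against full-length OGDHL, and that of full-length OGDHL against eGFP was -0.518 without eGFP replicate 1 and 1.42 without eGFP replicate 3. The table divides every gene by its genomic span, introns included, which raises intron-free mitochondrial genes against nuclear ones. Weighted back by length, the members took 14.8% of the signal in dMTS replicate 2 and 19.1% to 22.5% in the other 8 libraries. In bulk RNA, less RNA per cell and fewer cells of a kind cannot be told apart.

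The mRNAs supplied 79.9% to 82.8% of the mitochondrial TPM, the rRNAs 16.8% to 19.5% and the tRNAs 0.224% to 0.637%. None of these genes has an intron, so their TPM values are per length of transcript. Levels set side by side here are those in libraries enriched for mRNA, so between mRNAs, rRNAs and tRNAs they also carry how well each RNA was captured. The most abundant was MT-RNR2, the 16S rRNA of the large ribosomal subunit. Its level was 93714, 93031 and 96062 TPM in the eGFP, 94287, 94482 and 94766 in the full-length and 101707, 91327 and 102713 in the dMTS libraries. MT-RNR1, the 12S rRNA of the small subunit, was at 15199.8, 15470.5 and 16449.7 TPM in the eGFP, 15057, 15650 and 14448 in the full-length and 15455, 15669 and 16497 in the dMTS libraries. For both, dMTS replicate 3 was the highest library and the groups overlapped. The 16S level in these libraries exceeded the 12S level 5.83- to 6.58-fold. The spread was smallest in this class, with a coefficient of variation over the 9 libraries of 4.04% and 4.15%.

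Cytochrome c oxidase, complex IV, takes 3 mitochondrial subunits, whose mRNAs were among the 5 most abundant members. MT-CO1, which encodes its catalytic subunit, was at 70349, 71593 and 74652 TPM in the eGFP, 71713, 69262 and 67747 in the full-length and 73839, 55344 and 66850.5 in the dMTS libraries. MT-CO2, the subunit that takes electrons from cytochrome c, was at 55700.1, 58244 and 62432 TPM in the eGFP, 60299, 59169 and 57862 in the full-length and 60652, 51849 and 60983 in the dMTS libraries. MT-CO3, the remaining core subunit, was at 63326, 63127 and 66020 TPM in the eGFP, 64498, 66449 and 61521 in the full-length and 69005, 55630.5 and 64144 in the dMTS libraries. In all 3 the lowest library was dMTS replicate 2, while the other dMTS libraries reached or approached the eGFP values, and the groups overlapped.

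ATP synthase, complex V, takes 2 mitochondrial subunits from a single bicistronic mRNA. MT-ATP6, a subunit of its proton channel, was at 55259, 57364 and 59146 TPM in the eGFP, 60099, 57470.4 and 57919 in the full-length and 59473, 47149 and 56181 in the dMTS libraries. MT-ATP8, a small membrane subunit, was at 37156, 38701 and 36431 TPM in the eGFP, 39609.6, 36981 and 43273 in the full-length and 36854, 36028 and 37916 in the dMTS libraries. The lowest library of both was dMTS replicate 2, and the groups overlapped. The MT-ATP8 reading frame ends inside that of MT-ATP6, and the 46 shared bases are shown because they make up 22.2% of MT-ATP8 and 6.75% of MT-ATP6, so that reads there can be given to either (chrM:8527-8572, plus strand, with the start codon of MT-ATP6 in capitals).
MT-ATP8 and MT-ATP6: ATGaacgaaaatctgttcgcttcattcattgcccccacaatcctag
The deposited level of MT-ATP8 was 0.616 to 0.764 times that of MT-ATP6, with the lowest ratio in eGFP replicate 3 and the highest in dMTS replicate 2. How reads within a shared stretch, or read pairs that cross from MT-ATP8 into MT-ATP6, were counted is not given in the sources used here.

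Complex I, NADH dehydrogenase, takes 7 mitochondrial subunits, and their mRNAs formed a high and a low set. MT-ND4, a proton-pumping subunit, was at 62040.1, 61949 and 65009.5 TPM in the eGFP, 65334, 64379 and 62099 in the full-length and 64624, 48888 and 56913 in the dMTS libraries. MT-ND1, near the quinone site, was at 40466, 43890.3 and 46862 TPM in the eGFP, 45006, 45561 and 43795 in the full-length and 43382, 35140.2 and 40632 in the dMTS libraries. MT-ND2, another membrane-arm subunit, was at 29465, 32345 and 33812 TPM in the eGFP, 33409, 32188 and 32766 in the full-length and 31959, 28024 and 31495 in the dMTS libraries. In these 3, dMTS replicate 2 was again the lowest of the 9 libraries. For MT-ND1 and MT-ND2 all dMTS libraries were below all full-length libraries, and for MT-ND4 dMTS replicate 1 lay among them.

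The low set held 4 complex I mRNAs. MT-ND4L, which shares 7 bases with MT-ND4 on the same bicistronic mRNA, was at 16217, 16263 and 16566 TPM in the eGFP, 16314, 14601 and 16187 in the full-length and 14915, 13037 and 13651 in the dMTS libraries. All 3 dMTS libraries were below all 3 eGFP libraries, and 1 of them, dMTS replicate 1, lay within the range of the full-length libraries. The last 30 bases of MT-ND4L (chrM:10737-10766, plus strand) are shown because the start of MT-ND4 lies within its end, with the shared bases, from the MT-ND4 start codon to the MT-ND4L stop codon, in capitals.
MT-ND4L and MT-ND4: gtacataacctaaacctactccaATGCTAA
Although both lie on 1 bicistronic mRNA, MT-ND4L, of 297 bases, was listed at only 0.227 to 0.267 times MT-ND4 per length. How read pairs that cross from MT-ND4L into MT-ND4 were counted is not given in the sources used here. The ratio therefore cannot be read as unequal levels on that mRNA. MT-ND3, a small membrane subunit, was at 12638, 13751 and 14418 TPM in the eGFP, 14338, 14987 and 14079 in the full-length and 14229, 15055 and 15246 in the dMTS libraries. It was the 1 mRNA for which dMTS replicate 2 was not the lowest library, the lowest being eGFP replicate 1. MT-ND5, the longest of the mRNAs at 1812 bases, was at 14363, 15125 and 15654 TPM in the eGFP, 14795, 13599 and 14423 in the full-length and 14409, 11206 and 12804 in the dMTS libraries. Its lowest values were dMTS replicates 2 and 3, and dMTS replicate 1 lay just inside the eGFP range.

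MT-ND6 is the only mRNA of the light strand and also encodes a complex I subunit. It was at 17410.5, 17355 and 17808 TPM in the eGFP, 17724, 19079 and 17647 in the full-length and 18806, 15238 and 17688 in the dMTS libraries. The groups overlapped, with dMTS replicate 2 lowest and full-length replicate 2 highest. Its listed level was close to those of the least abundant heavy-strand mRNAs, and exceeded its heavy-strand neighbour MT-ND5 1.14- to 1.40-fold. Whether the counting used strand is not given in the sources used here. Without it, MT-ND6 and heavy-strand RNA over the same bases cannot be told apart. Within each group the ratio of MT-ND6 to MT-ND5 was 1.21, 1.15 and 1.14 in the eGFP, 1.20, 1.40 and 1.22 in the full-length and 1.31, 1.36 and 1.38 in the dMTS libraries. Full-length replicate 2 was highest of all. This ratio was not tested, and no share of ratios with a like order is given, so no order of groups is read from it. The apocytochrome b mRNA MT-CYB, the 1 mitochondrial gene of complex III, was at 34849, 34979 and 36749 TPM in the eGFP, 35359, 35931 and 33171 in the full-length and 36196, 26386 and 31651 in the dMTS libraries, again with dMTS replicate 2 the lowest.

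By mean level over the 9 libraries the order was MT-RNR2 (95788 TPM), MT-CO1 (69039), MT-CO3 (63747), MT-ND4 (61248), MT-CO2 (58577), MT-ATP6 (56673), MT-ND1 (42748), MT-ATP8 (38106), MT-CYB (33919), MT-ND2 (31718), MT-ND6 (17640), MT-RNR1 (15544), MT-ND4L (15306), MT-ND3 (14305) and MT-ND5 (14042). The ranges of neighbours in this order separated only between MT-RNR2 and MT-CO1, between MT-ATP6 and MT-ND1, and between MT-ND2 and MT-ND6. The other neighbours overlapped, and MT-RNR1 was above MT-ND4L in 4 of 9 libraries and MT-ND3 above MT-ND5 in 3 of 9. Over the mRNAs the coefficient of variation was 5.48% to 9.59%. In the annotation 7 of the 13 mRNAs end in a complete stop codon, while MT-ND1, MT-ND2, MT-CO3, MT-ND3, MT-ND4 and MT-CYB end in T or TA, a stop that is completed when the poly(A) tail is added. Members of either kind were found among both the high and the low mRNAs.

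**Figure D1:**
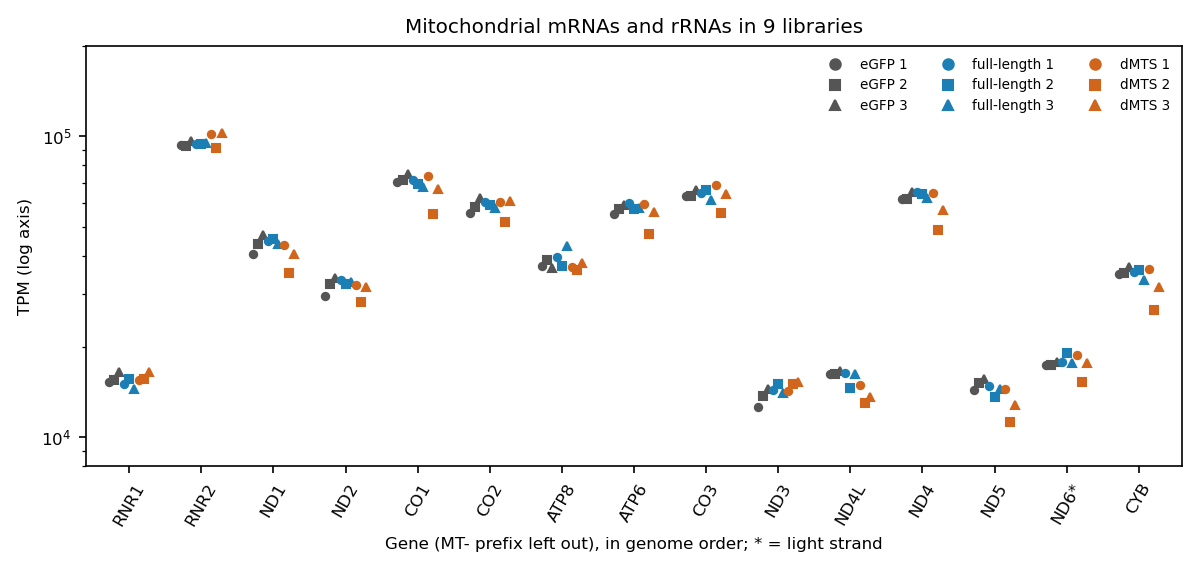
TPM (log axis) of the 13 mitochondrial mRNAs and 2 rRNAs in genome order, with 1 point per library (grey eGFP, blue full-length OGDHL, orange dMTS; circle, square and triangle for replicates 1, 2 and 3; the asterisk marks the light-strand gene). The orange square, dMTS replicate 2, is the lowest point for 12 of the 13 mRNAs, while MT-RNR1 and MT-RNR2 vary little.

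Among the tRNAs the strands stood far apart. The light-strand tRNAs are 8 of the 22 genes and took 89.2% to 92.5% of the tRNA TPM, which corresponds to an estimated 2648 to 7753 reads per library against 286 to 723 for the 14 heavy-strand tRNAs together. The 7 highest tRNAs by mean TPM were all of the light strand. The library protocol selected mRNA, and mature tRNAs have no poly(A) tail and are shorter than most library fragments, so these values do not give the cellular amount of mature tRNA. Whether the reads came from mature tRNAs or from longer RNAs that span them cannot be told apart in a table of gene values.

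MT-TS1, which reads serine UCN codons, was highest at 1082, 903 and 642 TPM in the eGFP, 932, 918 and 939 in the full-length and 498, 1352 and 1450.2 in the dMTS libraries. The asparagine tRNA MT-TN was at 543, 455 and 309 TPM in the eGFP, 562, 519 and 592 in the full-length and 424, 797 and 773 in the dMTS libraries. The alanine tRNA MT-TA was at 308, 269 and 152 TPM in the eGFP, 306, 300.3 and 369.6 in the full-length and 259, 457 and 424 in the dMTS libraries. In all 3, dMTS replicates 2 and 3 were the highest libraries, dMTS replicate 1 was the lowest for MT-TS1, eGFP replicate 3 was the lowest for MT-TN and MT-TA, and the groups overlapped.

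The tyrosine tRNA MT-TY was at 131, 99.6 and 77.8 TPM in the eGFP, 139, 133 and 139 in the full-length and 107, 222 and 191 in the dMTS libraries. Glutamate's tRNA, MT-TE, was at 102, 89.2 and 65.8 TPM in the eGFP, 107, 125 and 116 in the full-length and 112, 138 and 159 in the dMTS libraries. MT-TQ was at 91.5, 77.6 and 39.1 TPM in the eGFP, 103, 104 and 125 in the full-length and 75.1, 153 and 131 in the dMTS libraries. Full-length libraries were above all eGFP libraries for each of these 3, and for MT-TE the dMTS libraries were too. The cysteine tRNA MT-TC, at 59.7, 37.7 and 32.5 TPM in the eGFP, 44.4, 51.1 and 56.7 in the full-length and 37.4, 77.2 and 77.9 in the dMTS libraries, overlapped between all groups. The proline tRNA MT-TP, the lowest of the light strand, was at 23.5, 24.9 and 17.1 TPM in the eGFP, 19.1, 32.9 and 34.9 in the full-length and 31.5, 40.0 and 36.5 in the dMTS libraries. All dMTS libraries of MT-TP were above all eGFP libraries, whereas full-length replicate 1 lay among the eGFP values.

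On the heavy strand the highest tRNA was the leucine tRNA MT-TL1, at 60.2, 42.1 and 29.5 TPM in the eGFP, 58.7, 51.5 and 67.0 in the full-length and 43.2, 60.4 and 59.2 in the dMTS libraries, with overlapping groups. It follows MT-RNR2 directly and reached a mean of 52.4 TPM, close to MT-TC with 52.7. The valine tRNA MT-TV, between the rRNAs, had a mean of 39.1 TPM and the phenylalanine tRNA MT-TF, ahead of MT-RNR1, 35.4 TPM, so that the 3 highest heavy-strand tRNAs were those that flank the rRNAs. The histidine tRNA MT-TH was at 23.6, 18.0 and 12.2 TPM in the eGFP, 22.7, 32.0 and 22.3 in the full-length and 18.1, 24.5 and 29.6 in the dMTS libraries, where eGFP replicate 3 was lowest and the groups overlapped. MT-TI, MT-TS2, MT-TK, MT-TT, MT-TM, MT-TL2 and MT-TD had means from 20 down to 3.38 TPM.

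The lowest 3 of all members were tRNAs of the heavy strand. MT-TW was at 2.21, 2.82 and 1.55 TPM in the eGFP, 4.90, 2.38 and 2.88 in the full-length and 3.06, 4.14 and 2.58 in the dMTS libraries. The glycine tRNA MT-TG was at 1.77, 4.22 and 1.03 TPM in the eGFP, 2.94, 1.91 and 0.821 in the full-length and 4.37, 3.68 and 2.15 in the dMTS libraries. The arginine tRNA MT-TR was at 0, 0.491 and 1.08 TPM in the eGFP, 0.513, 0.499 and 0.43 in the full-length and 1.37, 1.44 and 0.449 in the dMTS libraries. All groups overlapped for each of the 3. MT-TR corresponds to 0 to 3 estimated reads per library and passed the filter of 1 TPM in 3 libraries through eGFP replicate 3 and dMTS replicates 1 and 2. Each of these values rests on 10 estimated reads or fewer, so no order among their libraries can be read at this depth.

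Neighbours on opposite strands show the contrast side by side. MT-TS1 exceeded MT-TD, 3 bases away, 190- to 588-fold, and MT-TA exceeded MT-TW, 7 bases away, 62.5- to 165-fold. MT-TQ exceeded MT-TI, with which it shares 3 bases, 2.47- to 7.03-fold, and MT-TM, 1 base away, 6.30- to 14.5-fold. MT-TP exceeded the threonine tRNA MT-TT, 2 bases away, 1.56- to 4.0-fold. In each of these 5 pairs the light-strand tRNA was the higher in 9 of 9 libraries. The libraries kept strand origin by dUTP marking, but whether the counting used it is not given in the sources used here, and without it reads from a gene and from RNA of the opposite strand cannot be told apart.

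**Figure D2:**
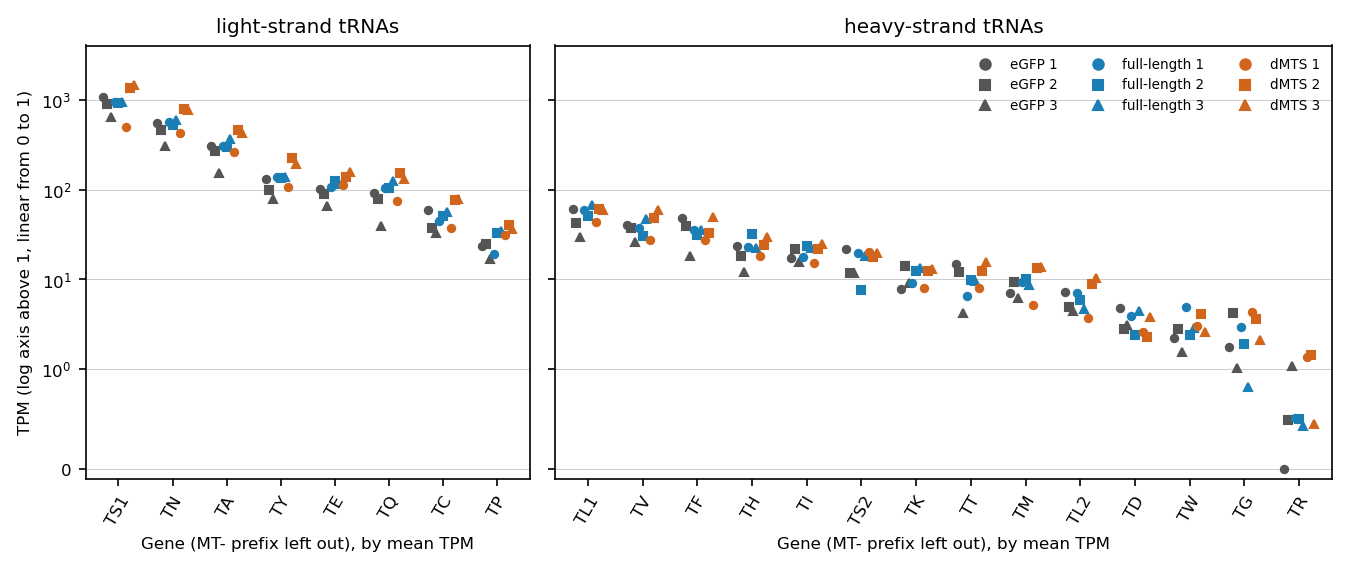
TPM of the 8 light-strand (left) and 14 heavy-strand (right) mitochondrial tRNAs, each set ordered by its mean, with 1 point per library (colours for groups and shapes for replicates as in the legend; the axis is logarithmic above 1 TPM and linear from 0 to 1). The light-strand tRNAs run from a mean of 968 TPM down to 28.9, the heavy-strand ones from 52.4 down to 0.697, and the grey triangle, eGFP replicate 3, is the lowest point for 7 of the 8 light-strand tRNAs.

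**Figure D3:**
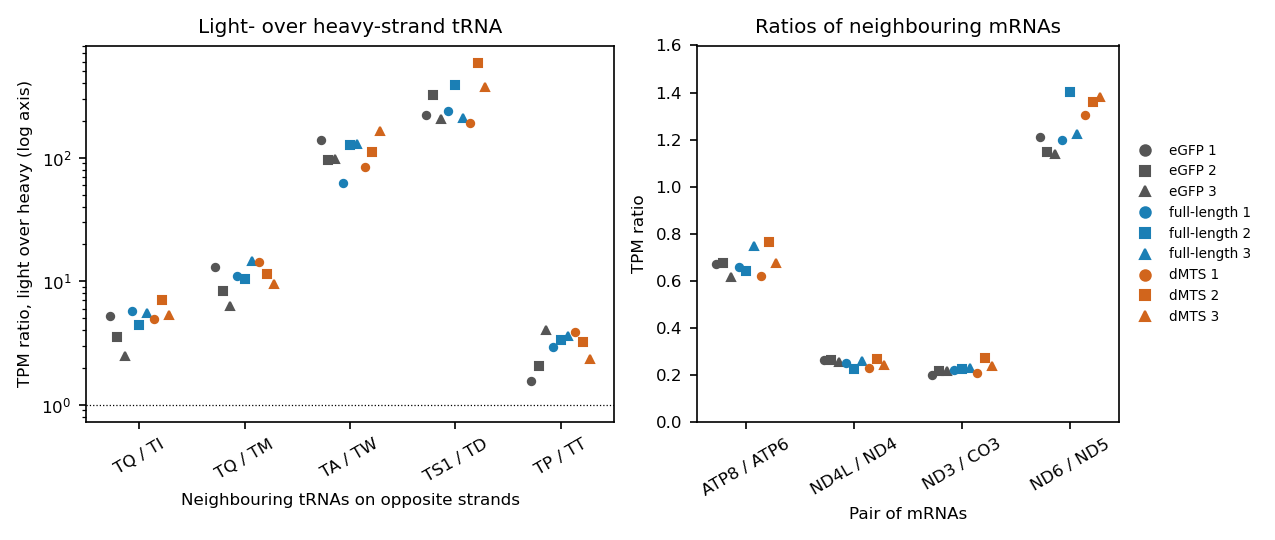
Left, TPM ratio (log axis) of the light- over the heavy-strand tRNA for 5 neighbouring pairs, with 1 point per library and a dotted line at equality; all points are above 1. Right, TPM ratios of 4 pairs of mRNAs, which were not tested. MT-ND6 over MT-ND5 was 1.14 to 1.21 with eGFP, 1.20 to 1.40 with full-length OGDHL and 1.31 to 1.38 with dMTS.

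Full-length OGDHL against eGFP asks what the intact enzyme does to these transcripts in knockout cells. By limma none of the 37 members was called at an adjusted p under 0.05, where 0.00756% of all 13231 tested genes were called. At an unadjusted p under 0.05 there were 3 (MT-TQ, MT-TE and MT-TH), where 1.97% of all genes were, and limma-voom on the estimated reads called none of the 33 members it tested. The median log2 fold change was 0.02 over the mRNAs (8 above and 5 below 0), -0.03 over the rRNAs, 0.11 over the heavy-strand tRNAs and 0.42 over the light-strand tRNAs, with 8 of 8 above 0, against 0.00 over all genes tested. The members with the largest difference of their class were MT-TQ at 0.74 (SE 0.30), MT-TH at 0.52 (SE 0.23), MT-ATP8 at 0.09 (SE 0.07) and MT-RNR1 at -0.06 (SE 0.07), all with a limma adjusted p of 1.00. Full-length libraries were all above eGFP libraries for MT-TQ, MT-TY and MT-TE, 3 of 37 members, where 2.08% of all genes were so ordered, and after rescaling for MT-TA and MT-TN as well, where 7.98% of all genes were. The medians of the tRNAs rest in part on 1 control library: without eGFP replicate 3 they were 0.19 for the light and 0.04 (7 of 14 above 0) for the heavy strand. That library had both the fewest estimated reads (86.3 M) and the lowest summed tRNA level (1480 TPM). The next lowest tRNA sum, 1732 TPM in dMTS replicate 1, came with 103.7 M reads. A part of depth in the tRNA values was not tested. On leaving out 1 library at a time MT-TQ ran from 0.38 to 0.98 and MT-TH from 0.28 to 0.73.

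dMTS against eGFP asks the same of OGDHL that lacks its mitochondrial signal. None of the 37 members was called by limma, where 0.514% of all genes were (0.0529% higher and 0.461% lower). At an unadjusted p under 0.05 there were 8: MT-TQ, MT-TA, MT-TN, MT-TY, MT-TE and MT-TP with a positive and MT-ND4L and MT-ND5 with a negative difference, where 10.9% of all genes passed that threshold. MT-TE was nearest to a call, with a log2 difference of 0.67 (SE 0.16; limma adjusted p = 0.108), and it was called with limma-voom (0.59, adjusted p = 0.0473), where 7.50% of the genes it tested were called, and with rescaling (0.60, SE 0.15, limma adjusted p = 0.0490), where 9.44% of all genes were called (3.32% higher). The rescaled call was lost on leaving out any 1 library other than dMTS replicate 1 (limma adjusted p from 0.0616 to 0.142).

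By class, the median log2 difference of dMTS from eGFP was 0.67 over the light-strand tRNAs (8 of 8 above 0), 0.33 over the heavy-strand tRNAs (13 of 14), 0.04 over the rRNAs (2 of 2) and -0.08 over the mRNAs (1 of 13, MT-ND3 at 0.13), against 0.06 over all genes tested. Members of 1 library share its depth and scaling, so such counts of signs, in each comparison, are not of independent values. The heavy-strand count also holds MT-TW, MT-TG and MT-TR, which had 10 estimated reads or fewer in each library. The sign for the rRNAs turned with scaling, to -0.03 when rescaled and -0.05 relative to summed nuclear TPM. Rescaling gave 0.60, 0.27 and -0.16 for the light-strand tRNAs, the heavy-strand tRNAs and the mRNAs. Relative to summed mitochondrial TPM the mRNA median was -0.02, with 6 above and 7 below 0. The mRNA difference rests on dMTS replicate 2: without it the median was -0.00, with 5 above and 8 below 0, and without dMTS replicate 1 it was -0.15. Without eGFP replicate 3 the light-strand median was 0.40 and the heavy-strand one 0.15 (11 of 14 above 0), and without dMTS replicate 3 the heavy-strand median was 0.13 (11 of 14) and the rRNA median 0.01.

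Among single members MT-ND4L differed by -0.24 (SE 0.08, limma adjusted p = 0.236). On the deposited scale it was the 1 member lower in all dMTS than in all eGFP libraries, where 6.58% of all genes were. Rescaled, 0 of 13 mRNAs were so ordered. MT-ND5 differed by -0.24 (SE 0.09; limma adjusted p = 0.362), and by -0.15 without dMTS replicate 2. MT-TQ at 0.80 (SE 0.30), MT-TY at 0.71 (SE 0.24) and MT-TP at 0.71 (SE 0.21) were the light-strand tRNAs with the largest differences, with MT-TQ at 0.44 without eGFP replicate 3, and MT-RNR2 was the rRNA at 0.06 (SE 0.07). The heavy-strand tRNAs with the largest fitted values, MT-TR and MT-TG, rest on too few reads for a difference to be given. MT-TE and MT-TP were higher in all dMTS than in all eGFP libraries, where 5.24% of all genes were.

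The 3 dMTS libraries differed among themselves in their tRNA levels. The summed light-strand tRNA level was 1544 TPM in dMTS replicate 1, inside the eGFP range of 1335 to 2341, and 3236 and 3243 in replicates 2 and 3, above every other library. Leaving out dMTS replicate 1, limma called 9 of 37 members, where 3.53% of all genes were called (1.57% higher, 1.96% lower): MT-TQ (1.11), MT-TM (0.78), MT-TN (0.89), MT-TC (0.87), MT-TY (1.03), MT-TS1 (0.71) and MT-TE (0.80) higher, MT-ND5 (-0.33) and MT-ND4L (-0.29) lower, with limma adjusted p from 0.0121 to 0.0491. Rescaled, in a fit added after seeing the data, the same omission gave 5 of 37 members called, where 17.9% of all genes were called. In both fits the dMTS group rests on 2 libraries. Other RNAs, chosen after their values were seen, also separated these libraries: the long noncoding RNA MALAT1, retained in the nucleus, had 816 TPM in dMTS replicate 2, 878 in dMTS replicate 3 and 1151 to 1374 in the other 7, whereas RMRP, the RNA of RNase MRP, was highest in dMTS replicate 2 (7.10 TPM) and lowest in dMTS replicate 1 (2.03). RN7SK was likewise lowest in dMTS replicate 1, at 12.9 TPM, with 44.7 and 34.8 in dMTS replicates 2 and 3. It was at 47.5, 60.5 and 52.7 TPM in the eGFP and 43.8, 31.0 and 32.8 in the full-length libraries. RN7SL1 was highest in dMTS replicate 1, at 206 TPM, with 153 and 120 in dMTS replicates 2 and 3. It was at 48.7, 69.2 and 50.6 TPM in the eGFP and 48.0, 65.3 and 186 in the full-length libraries. RPPH1, the RNA of RNase P, was at 4.23, 4.40 and 3.91 TPM in the eGFP and 8.41, 7.10 and 7.62 in the full-length libraries. In the dMTS libraries it was at 5.35, 6.53 and 6.58 TPM. These RNAs thus did not share an order of libraries, but some also separated groups. RPPH1 was higher in all full-length than in all eGFP libraries, where 2.08% of all genes were. RPPH1 and RN7SL1 were higher in all dMTS than in all eGFP libraries, where 5.24% were. RN7SK was lower in all dMTS than in all eGFP libraries, where 6.58% were. It was also lower in all full-length libraries, for which no share is given. The part of these RNAs in the tRNA values was not tested.

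dMTS against full-length OGDHL sets the forms side by side. None of the 37 members was called by limma, where 0% of all genes were, none by limma-voom, and 1 (MT-ND4L) had an unadjusted p under 0.05, where 5.42% of all genes did. The median log2 difference was -0.11 over the mRNAs (1 of 13 above 0), 0.07 over the rRNAs, 0.07 over the heavy-strand tRNAs and 0.21 over the light-strand tRNAs (8 of 8), against 0.05 over all genes tested. These medians moved with single libraries: for the mRNAs, light-strand and heavy-strand tRNAs they were -0.18, 0.47 and 0.29 without dMTS replicate 1, -0.04 (5 of 13 above 0), 0.05 (6 of 8) and -0.00 without dMTS replicate 2, and -0.13, 0.09 and -0.08 without dMTS replicate 3. Relative to summed nuclear TPM the rRNA and the heavy-strand tRNA medians turned to -0.04 each. MT-ND4 and MT-ND4L differed by -0.18 each (SE 0.09 and 0.08; limma adjusted p = 0.951 and 0.877), MT-RNR1 by 0.08 (SE 0.07) and MT-TP by 0.34 (SE 0.21). On leaving out 1 library at a time MT-ND4 ran from -0.28 to -0.08 and MT-TP from 0.08 to 0.50. On the deposited scale MT-ND1 and MT-ND2 were lower in all dMTS than in all full-length libraries, where 4.22% of all genes were. Rescaled, 0 of 13 mRNAs were so ordered. The comparisons share libraries, so their values are not independent of one another.

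**Figure D4:**
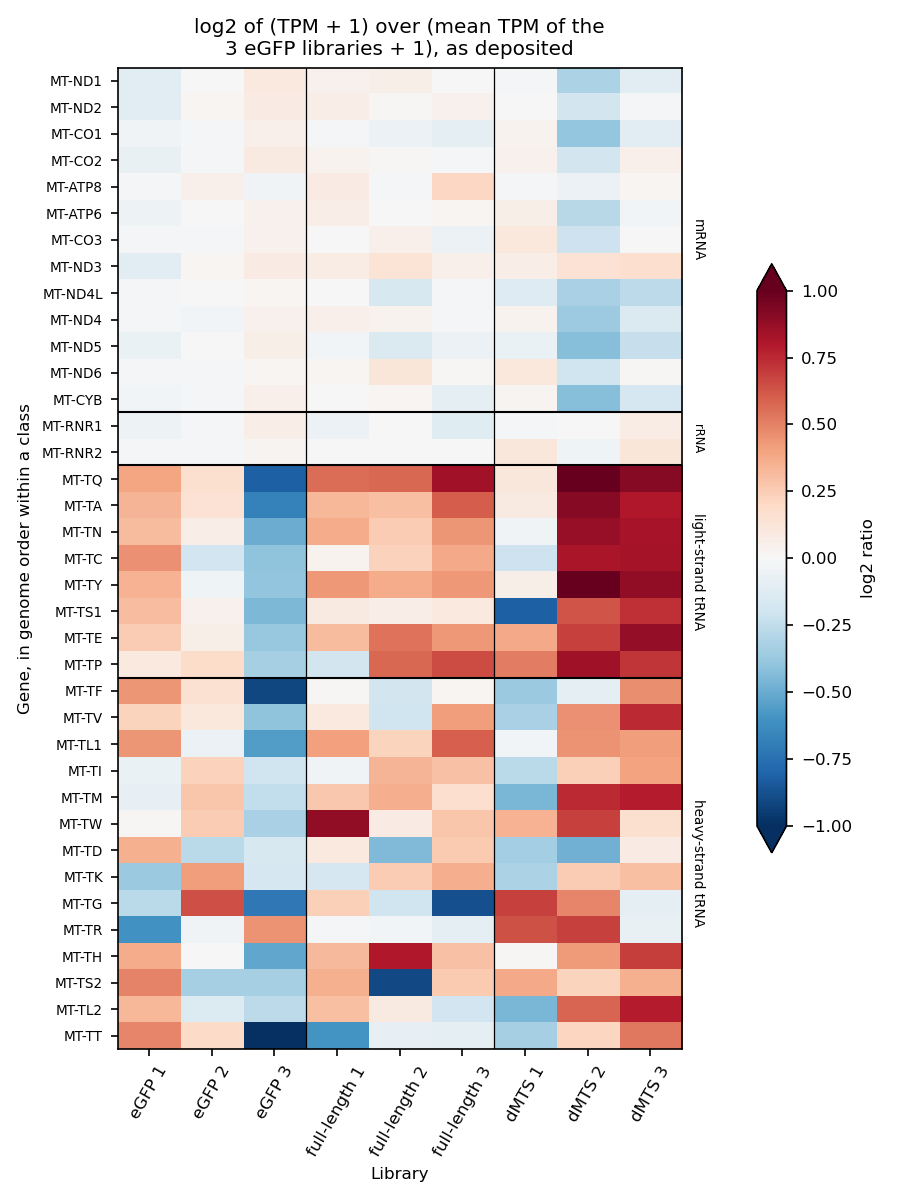
Log2 of TPM + 1 over the mean of the 3 eGFP libraries + 1, on the deposited scale, for the 37 members (rows, by class and in genome order) in 9 libraries (columns); red is higher and blue lower than the eGFP mean, and colours saturate at -1 and 1. The block of light-strand tRNAs is blue in eGFP replicate 3 and red in dMTS replicates 2 and 3, and dMTS replicate 2 is blue over 12 of the 13 mRNAs.

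The balance between classes was compared as 1 ratio per library. The summed rRNA level over the summed mRNA level was 0.214, 0.207 and 0.206 in the eGFP, 0.203, 0.208 and 0.209 in the full-length and 0.218, 0.244 and 0.236 in the dMTS libraries, so that all 3 dMTS libraries were above all 6 others. The means differed by 0.0233 between dMTS and eGFP and by 0.0256 between dMTS and full-length OGDHL (exact two-sided permutation p = 0.1 each, the smallest this design allows; adjusted p = 0.6 over 18 tests), and by -0.00230 between full-length OGDHL and eGFP (p = 0.6). The ratio does not depend on how a library is scaled. On the deposited scale the mean rRNA sum of dMTS was 1.04 times that of eGFP and its mean mRNA sum 0.939 times.

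The summed tRNA level over the summed mRNA level was 0.00510, 0.00415 and 0.00271 in the eGFP, 0.00455, 0.00454 and 0.00503 in the full-length and 0.00322, 0.00797 and 0.00700 in the dMTS libraries. The groups overlapped, because dMTS replicate 1 lay among the eGFP values, and the exact permutation p was 0.3 for dMTS against eGFP, 0.5 for full-length OGDHL against eGFP and 0.4 between the OGDHL forms. MT-ND6 over the 12 heavy-strand mRNAs was 0.0354, 0.0342 and 0.0337 in the eGFP, 0.0340, 0.0374 and 0.0350 in the full-length and 0.0362, 0.0360 and 0.0362 in the dMTS libraries. Here the dMTS libraries were all above the eGFP libraries by a mean of 0.00167 (exact permutation p = 0.1, adjusted 0.6), and lay within the full-length range. The light-strand share of mitochondrial TPM, of which MT-ND6 makes up 82.5% to 93.0%, ran from 2.90% to 3.36% with overlapping groups (exact permutation p from 0.2 to 0.5).

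**Figure D5:**
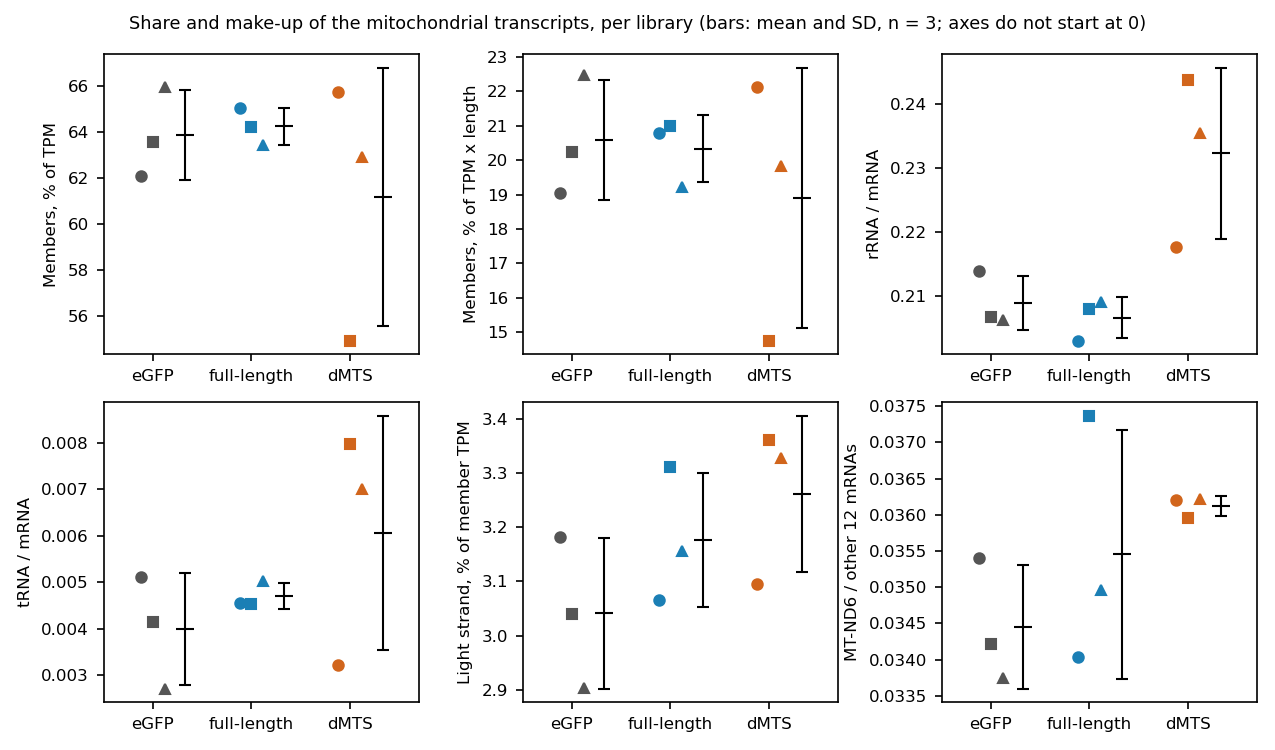
Share of the 37 members in TPM and in TPM times length, rRNA over mRNA, tRNA over mRNA, light-strand share and MT-ND6 over the other 12 mRNAs, with 1 point per library by group and bars for the mean and SD (n = 3); axes do not start at 0. The rRNA over mRNA ratio is 0.218 to 0.244 with dMTS and 0.203 to 0.214 in the other 6 libraries, and dMTS replicate 2 (square) has the lowest mitochondrial share.

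Nuclear genes that transcribe, process, modify, degrade or replicate mitochondrial nucleic acids were listed separately, 56 genes of which 55 were in the table and 52 were tested. None was called for full-length OGDHL against eGFP (28 above and 24 below 0, median 0.01) or for dMTS against full-length OGDHL (41 and 11, median 0.06). For dMTS against eGFP 1 of 52 fell and none rose (37 above and 15 below 0, median 0.06), where 0.461% of all genes fell. Rescaled, 2 of 52 fell (26 and 26, median 0.00), a smaller share than the 6.12% of all genes that fell on that scale. The gene that fell on either scale was MTERF4, which with the methyltransferase NSUN4 acts in assembly of the large mitochondrial ribosomal subunit. It was at 11.8, 11.2 and 9.94 TPM in the eGFP, 9.03, 9.04 and 9.70 in the full-length and 7.68, 7.72 and 6.55 in the dMTS libraries. All dMTS libraries were below all eGFP libraries, where 6.58% of all genes were, and below all full-length libraries, where 4.22% were. All full-length libraries were below all eGFP libraries, for which no share is given. MTERF4 is shown because it was called, so this order is not separate support. The log2 difference was -0.53 (SE 0.09; limma adjusted p = 0.0443), and -0.59 rescaled (limma adjusted p = 0.0103). The call on the deposited scale was lost without any 1 of the eGFP or full-length libraries or without dMTS replicate 3 (limma adjusted p from 0.0574 to 0.248). POLG, the catalytic subunit of the mitochondrial DNA polymerase, fell only when rescaled (-0.14, limma adjusted p = 0.0288), its deposited values being 5.60, 5.22 and 4.72 TPM in the eGFP, 4.98, 4.89 and 5.24 in the full-length and 4.47, 5.62 and 4.54 in the dMTS libraries.

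The next largest differences in the nuclear list did not pass the test. TFAM, which packages mitochondrial DNA and starts transcription, differed by 0.22 (SE 0.13; limma adjusted p = 0.591) for dMTS against eGFP and by 0.13 (SE 0.13) for full-length OGDHL against eGFP. QTRT1, of the enzyme that places queuosine in tRNAs, differed by -0.23 (SE 0.09; limma adjusted p = 0.344) for dMTS against eGFP. MPV17, an inner membrane protein needed to maintain mitochondrial DNA, differed by -0.11 (SE 0.09) for full-length OGDHL against eGFP. POLG2, the accessory polymerase subunit, differed by -0.16 (SE 0.10), and SSBP1, the mitochondrial single-strand binding protein, by 0.13 (SE 0.09), for dMTS against full-length OGDHL.

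Nuclear copies of mitochondrial DNA limit how exactly some members were counted. The table holds 117 such pseudogene rows, 15 of them with a mean of at least 1 TPM, with a sum of 4661 to 5703 TPM per library. MTATP6P1 on chromosome 1 (start 633696, end 634376, plus strand, GRCh38) took 76.6% to 78.3% of that sum and was listed at 7.12% to 7.65% of the MT-ATP6 level. Over their 681 bases the gene and this copy differ at 10 positions, an identity of 98.5%, and 295 of the 632 windows of 50 bases in MT-ATP6 occur unchanged in the copy. MTND2P28 was listed at 2.51% to 2.81% of MT-ND2, and MTCO1P12 at 0.280% to 0.344% of MT-CO1. The share of MT-ATP6 listed under its copy thus varied little over the 9 libraries, and how reads that match both were assigned is not given in the sources used here.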

How the data were processed

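mRNA-enriched, dUTP-stranded libraries of 9 samples of 16D cells were read as pairs of 50 bases, per the labels' protocols. The authors deposited 1 table of TPM, and STAR and GRCh38 are named, without versions, per the submitters' processing notes. The sources used here do not give the annotation release, the read counter or its strand setting. The deposited Length column equals the genomic span. For values under 20 reads, 71.7% to 74.3% of TPM times length lay within 0.01 of whole multiples of a library's step, which gave the estimated reads; these are estimates, so no counting interval is given. Members and gene lists were chosen with earlier results of these data known. Named were all 37 members, with values per library for mRNAs, rRNAs, light-strand tRNAs, the 3 highest and 3 lowest tRNAs, called members and the largest difference per class, besides called and the 3 most changed nuclear genes. limma 3.58.1 (R 4.3.3) was fitted on log2(TPM + 1), with eBayes trend, to 13231 genes of at least 1 TPM in 3 libraries, over all 9 libraries, with two-sided p adjusted by Benjamini-Hochberg and a call under 0.05. Fold changes are on that scale and understate changes of low genes. Ratios per library were compared by exact permutation (scipy 1.17.1). The limma script was tested on simulated data: of 200 changed genes among 13231, it recovered 93% at a log2 change of 1 and 98% at 2, with 7 false calls. The simulated noise was independent between genes, with no shift of a whole library. The test therefore does not give the recovery of smaller changes or the false calls in these libraries. Alternatives were other pseudocounts, filters and scalings, a replicate block, only the 6 libraries compared, robust eBayes, limma-voom and leaving out each library; rescaling combined with leaving out a library was added after seeing the data.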

Additional observations from a re-analysis of the deposited data

How the results depend on the processing

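No member was called for full-length OGDHL against eGFP or for dMTS against full-length OGDHL under any alternative run. For dMTS against eGFP the count of 0 called members became 1 when rescaled by the median, where 9.44% of all genes were called. It was 1 with limma-voom on estimated reads, where 7.50% of the genes tested were called. Leaving out 1 library gave 0 to 9, with 9 only without dMTS replicate 1, where 3.53% of all genes were called. Rescaled, the count was 1 without full-length replicate 1 (MT-TP), where 4.27% of all genes were called. Without dMTS replicate 1 it was 5 when rescaled, where 17.9% of all genes were called. Both of these rescaled fits were added after seeing the data. The replicate block gave 0 called members in each comparison, with or without rescaling. Deviations of same-numbered libraries from their group means were correlated with r from -0.44 to 0.11. These r carry the overall shift of each library, so they cannot decide whether same-numbered libraries shared a culture or batch. The block lowered the count over all genes from 68 to 13 for dMTS against eGFP, and rescaling raised it to 1249. Weighted by length, rRNA over mRNA differed by 0.0432 (dMTS against eGFP) and 0.0431 (dMTS against full-length), tRNA over mRNA by 0.000163 and the light-strand share by 0.0534 percentage points (both dMTS against eGFP); this weighting counts bases in place of molecules. The MTERF4 call was also lost with no filter (limma adjusted p = 0.106), the replicate block (0.121) and only the 6 libraries compared (0.0895). Depth limits the heavy-strand tRNAs, whose median estimated reads per library ran from 1 to 132.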

Other observations

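Summed by complex, the 7 complex I mRNAs were at 166588 TPM in dMTS replicate 2 and at 188428 to 210129 in the other 8 libraries, the 3 complex IV mRNAs at 162824 and at 187131 to 203497, and the 2 complex V mRNAs at 83177 and at 92415 to 101192. The lower level in that library was thus found in each complex, and within it the log2 difference from the eGFP mean ran from -0.43 for MT-CYB to 0.15 for MT-ND3. Over the 15 mRNAs and rRNAs of 1 library, which share its depth and scaling, Spearman's rho between gene length and this difference was -0.44 in dMTS replicate 2, 0.02 in dMTS replicate 1, -0.29 in dMTS replicate 3, and -0.52, -0.16 and -0.53 in the full-length libraries. In the eGFP libraries, which set the mean, rho was -0.125, -0.31 and 0.29, so the ranges of the groups overlapped. MT-ND3 over MT-CO3, its neighbour across MT-TG, was 0.200, 0.218 and 0.218 in the eGFP, 0.222, 0.226 and 0.229 in the full-length and 0.206, 0.271 and 0.238 in the dMTS libraries. This ratio was not tested, and no share of ratios with a like order is given, so no order of groups is read from it.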
